A study of Mus musculus with 6 samples.

Results

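The genes described here are the Hox, Dlx, Nkx, Lhx, Irx, Six-family, Pax, Isl and Msx homeobox and paired-box factors and the Pou factors, counted in differentiated mouse cortical neural progenitor cells. They were chosen by symbol, as the rows of the deposited count table whose name began with a family name and a number. Antisense and host genes were left out, as were Pax2, Pax5, Pax8, Lhx2, Six3 and Nkx2-2. This left 102 of the 39179 genes in the table. RNA came from 2 groups of 3 libraries. The G392E-NS cells stably expressed the G392E form of neuroserpin (NS), a secreted protease inhibitor whose G392E form polymerises inside the endoplasmic reticulum and causes the dementia FENIB. The GFP cells stably expressed green fluorescent protein. In both groups the cells derived from progenitors, the dividing precursors of neurons and glia, of the embryonic day 13.5 cortex of CD1 mice, and were differentiated in culture. The labels name neither the promoter of the constructs nor the number of clones, and no cells expressing normal neuroserpin were analysed here. They also do not say that replicates were separate cultures, so the p-values cover only the spread among these libraries, part of which may be technical.

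Homeodomain proteins are transcription factors that give cells of the embryo their position and type. Hox genes, in chromosomal clusters, mark the hindbrain, spinal cord and trunk and are largely silent in the cortex. Dlx, Nkx2-1 and Lhx6 belong to the ventral forebrain, where inhibitory neurons are born, Isl and several Lhx genes to motor and sensory neurons, and Pax6 to the radial glia of the cortex. Irx genes divide the neural plate into regions, Six-family genes act in eye, muscle and kidney, and Msx genes in dorsal neural tube and mesenchyme. POU factors carry a second DNA-binding domain beside the homeodomain, and the Pou3f (Brn and Oct6) proteins act in neural progenitors and in the making of upper cortical layers.

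The libraries held 15507487 to 24835835 counts, and between 35 and 45 of the 102 genes had at least 1 count in a given library. The mouse neuroserpin gene Serpini1 had 5.71 ± 0.923 CPM (counts scaled to a common library total with TMM factors) in G392E-NS and 4.69 ± 0.482 CPM in GFP libraries (mean ± SD, n = 3 each, adjusted p = 0.419 by edgeR's quasi-likelihood test). The labels do not give the species of the introduced gene, so the construct could not be checked.

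Of the 102 genes, 24 had 30 or more counts summed over the 6 libraries, 38 had fewer, and 40 had none. No count among 123925863 allows a level of up to 0.0242 CPM over the 6 libraries, for counting error only. POU genes dominated, with 83.7% of the 77231 counts in the 102 genes, and Pou3f3 and Pou6f1 alone held 55.2%. Pax6 held 8.57%. Of the 16 Pou genes in the table, 10 reached 30 counts, against 4 of 6 Irx, 3 of 5 Six-family, 2 of 6 Pax, 2 of 6 Dlx, 1 of 2 Isl, 1 of 3 Msx, 0 of 7 Lhx and 0 of 13 Nkx genes. Of 38 Hox genes, 26 had no count at all, among them all 10 Hoxb genes, 7 of 9 Hoxc genes and 7 of 8 Hoxd genes. The lowest total inside the threshold was the 34 counts of Msx1, and the highest outside it the 20 counts of Dlx6.

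**Figure D1:**
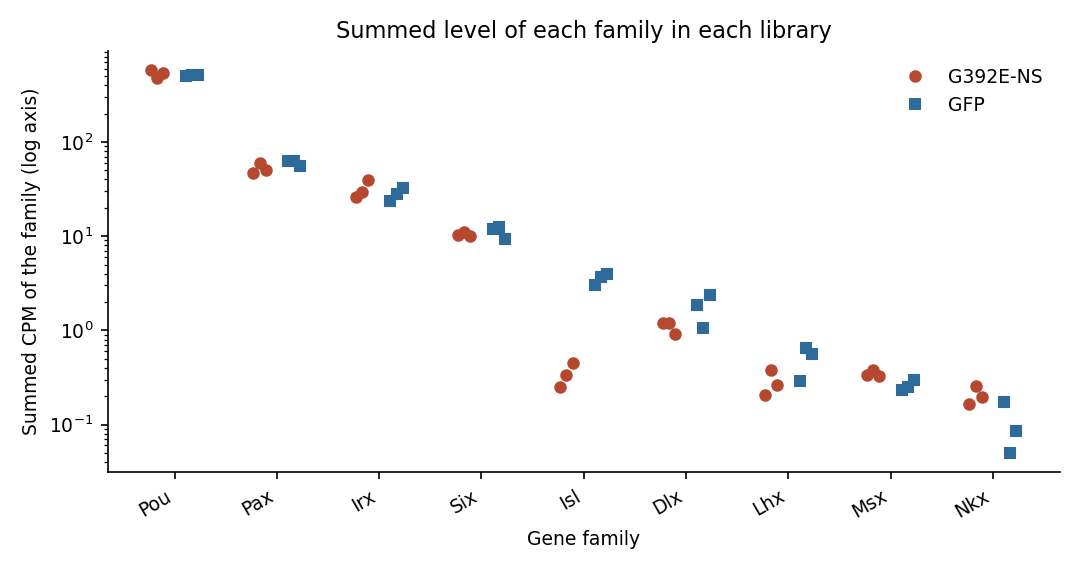
Summed CPM of 9 gene families in each library on a log axis, with G392E-NS libraries as circles and GFP libraries as squares. Pou genes lie highest in both groups, while the Isl genes lie lower in every G392E-NS library than in any GFP library.

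The family sums show how far the families differed in level. The Pou sum was 582, 478 and 540 CPM in G392E-NS libraries, against 503, 510 and 520 CPM in GFP libraries, so the groups overlapped. The Irx sum (26.0 to 39.5 CPM in G392E-NS and 23.9 to 32.8 CPM in GFP libraries), the Pax sum, the Six-family sum and the Dlx sum overlapped as well. The Isl sum, all of it from Isl2, did not overlap and is given with that gene. The Msx sum, from few counts, did not overlap either and was higher in G392E-NS libraries, with 0.326 to 0.381 CPM in G392E-NS and 0.230 to 0.299 CPM in GFP libraries.

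Between the groups, 3 of these genes fell in G392E-NS libraries and none rose. Among those that fell were Pax9 and Isl2, with log2 fold changes of -3.86 and -3.39. Of the 24 genes with 30 or more counts, 22 passed the low-count filter and were tested (edgeR quasi-likelihood test, Benjamini-Hochberg adjustment over all 13775 genes tested, threshold 0.05). Over all genes tested, 6.15% were called, 1.36% lower and 4.79% higher. Among the 22 tested, 1 had an unadjusted p under 0.05 in the higher direction and 5 in the lower. The matching share over all genes tested was not computed, so no lean is read from this split. DESeq2 called 1 higher, Pou3f3, and limma-voom 0. The groups did not overlap for 7 of the 22, 1 above and 6 below, against 28.6% of all genes tested (15.6% above and 12.9% below). The log2 fold change was above 0 for 10 and below 0 for 12, with a median of -0.12 against -0.0047 over all genes tested. Dlx1 and Msx1 had 30 or more counts and did not pass the filter. Pax9 and Isl2 passed the filter through their GFP libraries.

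**Figure D2:**
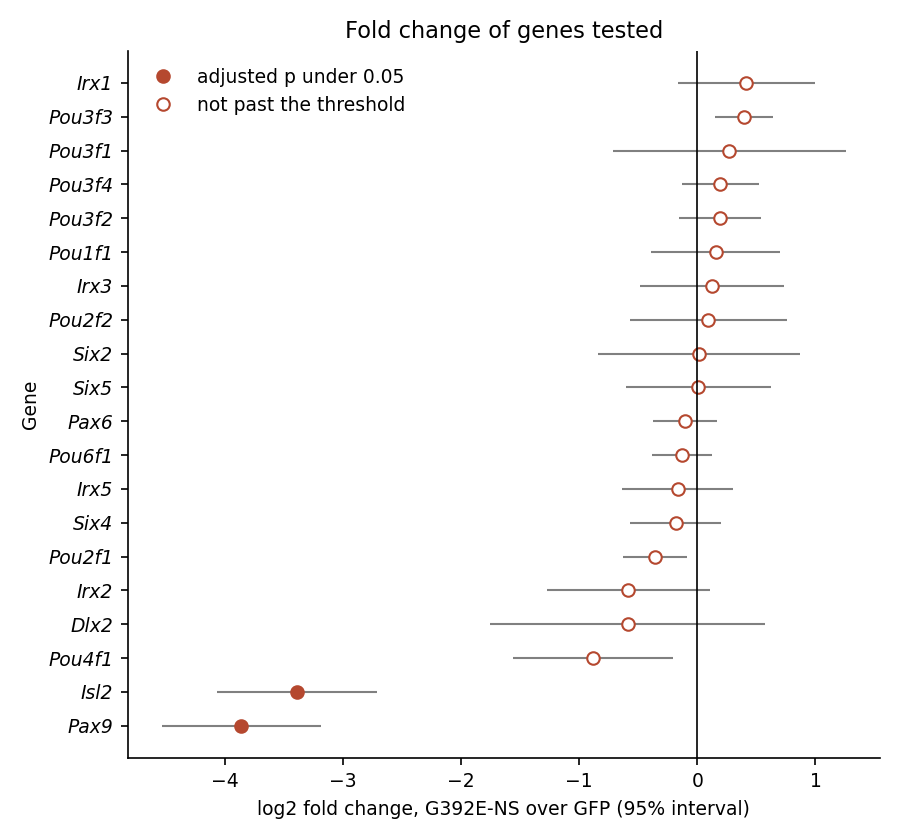
Log2 fold change of G392E-NS over GFP for genes of these families that were tested, with 95% intervals from the quasi-likelihood fit. Filled points passed an adjusted p of 0.05 (Isl2 and Pax9), and the open points lie within 0.88 of 0.

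The largest fall was that of Pax9, a paired-box factor of the pharyngeal pouches, sclerotome and tooth mesenchyme (ENSMUSG00000001497, GRCm38 chromosome 12, 56691767 to 56712822, plus strand). It had 9, 7 and 3 counts in G392E-NS replicates 1 to 3, against 66, 89 and 116 counts in GFP replicates 1 to 3. Its level was 0.289 ± 0.0895 CPM in G392E-NS and 4.41 ± 0.582 CPM in GFP libraries (SD, n = 3 each), a log2 fold change of -3.86 (SE 0.29, 95% interval -4.53 to -3.19, adjusted p = 0.000438). Every GFP library lay far above every G392E-NS library, and the level in GFP libraries was itself low. In bulk RNA, fewer cells that express a gene and less RNA per cell cannot be told apart. Pax9 shares 189 of its 5056 exonic bases with the opposite-strand gene Slc25a21, which had 1 count in the G392E-NS libraries together and 1 in the GFP libraries.

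Isl2, a LIM-homeodomain factor of motor neurons and retinal ganglion cells (ENSMUSG00000032318, chromosome 9, 55538672 to 55546180, plus strand), had 6, 8 and 7 counts in G392E-NS libraries, against 53, 74 and 93 counts in GFP libraries. The corresponding levels were 0.249, 0.339 and 0.456 CPM in G392E-NS and 3.05, 3.71 and 3.97 CPM in GFP libraries. The groups stood apart by more than the spread within either, with a log2 fold change of -3.39 (SE 0.29, 95% interval -4.06 to -2.71, adjusted p = 0.000797). Its relative Isl1, which marks motor neurons and striatal progenitors, had no count in any library.

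Pax9 and Isl2 kept their calls with each of the 6 libraries left out in turn. The adjusted p then ran from 0.00233 to 0.00396 for Pax9 and from 0.00343 to 0.00565 for Isl2.

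Most Hox genes were close to absent in both groups. Hoxa2, which specifies hindbrain segments and the second branchial arch, had 0, 1 and 0 counts in G392E-NS libraries, against 3, 9 and 2 counts in GFP libraries. Hoxc9, the Hox gene with the most counts outside the Hoxa cluster, had 10 in all, 4 in G392E-NS and 6 in GFP libraries. These totals are too low for a test.

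The tested chromosomal neighbours of Isl2 and Pax9, looked up after their values were seen, did not pass. Beside Isl2, the electron transfer gene Etfa had a log2 fold change of 0.29 (edgeR adjusted p = 0.225) and Scaper one of 0.16 (adjusted p = 0.486). Further away, Tmem266 had -0.83 (adjusted p = 0.0840), with 1.94 ± 0.456 CPM in G392E-NS and 3.44 ± 0.0735 CPM in GFP libraries, and Nrg4 had -0.49 (adjusted p = 0.365). The tested neighbours of Pax9, Mbip and Prps1l3, had -0.03 and -0.01 (adjusted p = 0.902 and 0.979). Nkx2-1, the ventral forebrain factor that lies 154.9 kb from Pax9, had 2 counts in the G392E-NS libraries together and 0 in the GFP libraries.

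**Figure D3:**
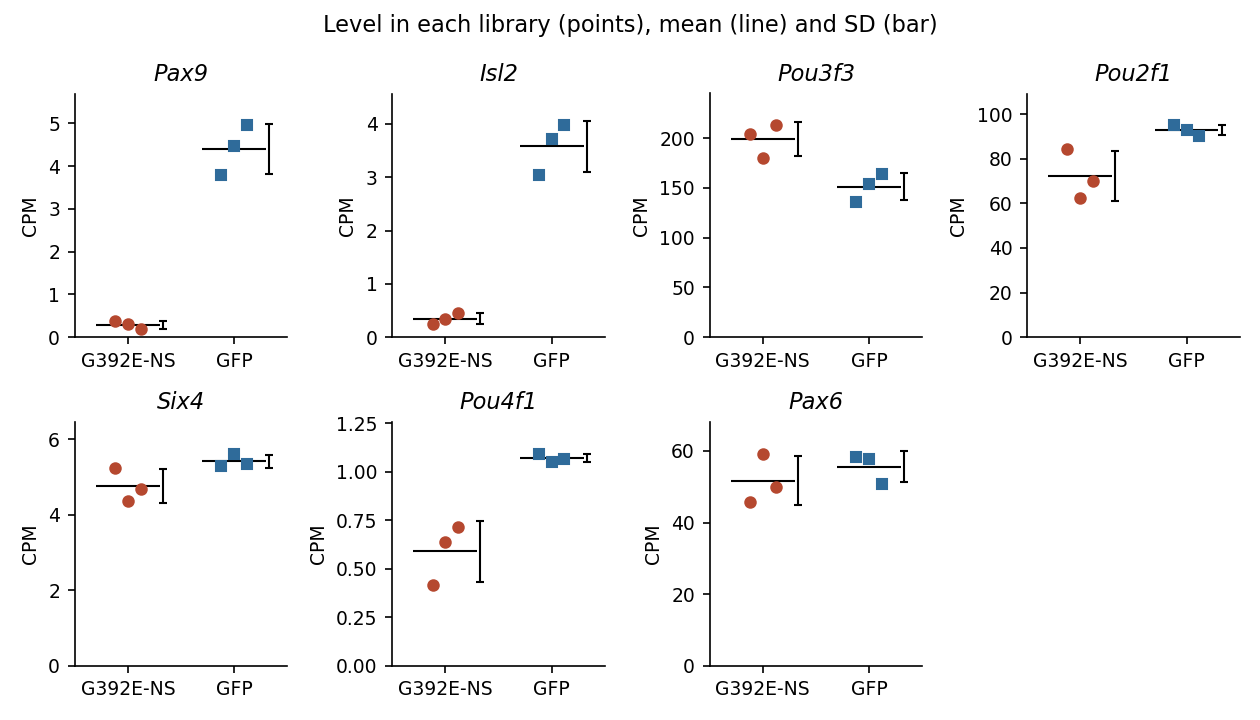
CPM in each library (points), group mean (line) and SD (bar) for 6 genes whose groups did not overlap and for Pax6, each axis starting at 0. Pax9 and Isl2 lie near 0 in G392E-NS libraries, Pou3f3 is higher in every G392E-NS library, and Pax6 overlaps.

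The promoters of Isl2 and Pax9, called lower, and of Pou3f3, whose groups did not overlap in the other direction, are shown for comparison; Pou3f3 did not pass the test. The sequences are RefSeq promoters of build GRCm38.p6, 250 bases before to 50 after the start, 5′ to 3′ on the gene's strand. They lie at chr9:55540899-55541198 (plus strand) for Isl2, chr12:56695221-56695520 (plus strand) for Pax9 and chr1:42695518-42695817 (plus strand) for Pou3f3. By the GENCODE positions, the Isl2 and Pax9 stretches lie wholly inside the gene, downstream of its first base. The Pou3f3 stretch spans the first base of its gene. Capitals mark CCAAT, a box bound by NF-Y, and TGACAG or its reverse complement CTGTCA, a core bound by Meis and Pknox proteins.
Isl2: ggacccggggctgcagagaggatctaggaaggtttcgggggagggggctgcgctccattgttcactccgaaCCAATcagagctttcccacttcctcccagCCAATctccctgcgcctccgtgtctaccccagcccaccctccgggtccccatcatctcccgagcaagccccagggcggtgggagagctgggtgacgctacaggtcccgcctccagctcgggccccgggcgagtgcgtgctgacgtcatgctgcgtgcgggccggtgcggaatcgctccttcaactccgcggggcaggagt
Pax9: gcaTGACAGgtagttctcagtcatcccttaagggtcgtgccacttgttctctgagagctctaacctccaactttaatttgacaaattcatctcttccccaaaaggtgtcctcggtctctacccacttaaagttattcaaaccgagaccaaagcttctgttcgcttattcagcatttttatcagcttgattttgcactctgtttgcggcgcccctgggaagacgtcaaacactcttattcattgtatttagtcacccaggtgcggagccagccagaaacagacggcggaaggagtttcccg
Pou3f3: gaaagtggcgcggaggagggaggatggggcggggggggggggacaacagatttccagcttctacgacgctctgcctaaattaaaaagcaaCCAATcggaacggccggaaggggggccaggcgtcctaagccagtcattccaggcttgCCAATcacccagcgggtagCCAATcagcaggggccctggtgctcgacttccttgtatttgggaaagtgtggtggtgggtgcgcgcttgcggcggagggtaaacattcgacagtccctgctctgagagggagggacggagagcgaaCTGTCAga

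The Isl2 promoter held CCAAT at 2 places and the Pou3f3 promoter at 3, while the Pax9 promoter held no CCAAT. The TGACAG core was in the Pax9 promoter and, as CTGTCA, in the Pou3f3 promoter. Motifs were searched on both strands, and none of the motifs searched overlapped another in these promoters. Promoters were listed for 19 of the 24 genes with 30 or more counts, 24 promoters in all. CCAAT was in 10 of the 24, against 37.4% of all 32851 promoters, and TGACAG in 6, against 19.2%. TATAAA, the TATA box, was in 2, against 13.6%. TAATTA, a homeodomain core, was in 0 of the 24, against 5.29%, and ATGCAAAT, the octamer of POU proteins, in 0, against 1.74%. CpG-rich promoters, with an observed over expected CpG ratio of 0.6 or more, made up 18 of the 24, against 69.2% of the promoters of genes tested and 35.8% of all promoters. The ratio was 0.678 for Isl2, 0.679 for Pax9 and 0.699 for Pou3f3, while the GC content was 67.3%, 47.0% and 60.3%.

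The other Pax gene above the threshold, Pax6, was abundant and did not pass the test. It had 45.9, 59.2 and 49.98 CPM in G392E-NS libraries, against 58.3, 57.9 and 50.7 CPM in GFP libraries, and the groups overlapped. Its log2 fold change was -0.11 (SE 0.12, 95% interval -0.38 to 0.17, adjusted p = 0.643). The other Pax genes of the set, Pax1, Pax3, Pax4 and Pax7, stayed under 30 counts.

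Of the 10 POU genes tested none passed, with adjusted p of 0.0732 to 0.883 by edgeR and log2 fold changes of -0.88 to 0.40. The nearest to the threshold was Pou3f3 (Brn1), a progenitor and upper-layer factor (chromosome 1, 42695768 to 42703176). It had 205, 180 and 213 CPM in G392E-NS libraries, against 136, 154 and 164 CPM in GFP libraries, so that every G392E-NS library was higher. Its log2 fold change was 0.40 (SE 0.11, 95% interval 0.15 to 0.64, adjusted p = 0.0732 by edgeR's quasi-likelihood test), while DESeq2 gave an adjusted p of 0.0212.

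The POU genes whose groups did not overlap in the other direction were Pou2f1 and Pou4f1. Pou2f1 (Oct1), a widely expressed octamer-binding factor, had 84.5, 62.5 and 70.1 CPM in G392E-NS libraries, against 95.005, 93.0 and 90.4 CPM in GFP libraries. Its log2 fold change of -0.36 (SE 0.12, adjusted p = 0.124) passed without G392E-NS replicate 1 (-0.50, adjusted p = 0.0256), the highest library of its group. Pou4f1 (Brn3a), a sensory neuron factor, was low, with 0.415, 0.636 and 0.717 CPM in G392E-NS libraries, against 1.09, 1.05 and 1.07 CPM in GFP libraries (log2 fold change -0.88, SE 0.29, adjusted p = 0.127). In Pou2f1, 3007 of 16597 exonic bases lie opposite exons of Cd247, which had 35 counts in all.

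Per kilobase of exon, Pou6f1 and Pou3f3 were the highest of the 24 genes, at 24.4 and 23.6 CPM per kb over all 6 libraries. In G392E-NS libraries Pou3f3 stood first, at 26.9 CPM per kb against 23.3 for Pou6f1, and in GFP libraries Pou6f1 stood first, at 25.5 against 20.4 for Pou3f3. Pou6f1, a neural factor of the last POU class, had 181, 139 and 165 CPM in G392E-NS libraries, against 174, 175 and 183 CPM in GFP libraries (log2 fold change -0.13, SE 0.11, adjusted p = 0.513). Pou3f2 (Brn2) and Pou3f4 (Brn4) followed at 10.3 and 9.24 CPM per kb, then Irx1 at 5.59, Pou2f1 at 4.98 and Pax6 at 4.59. All other genes lay under 3 CPM per kb.

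**Figure D4:**
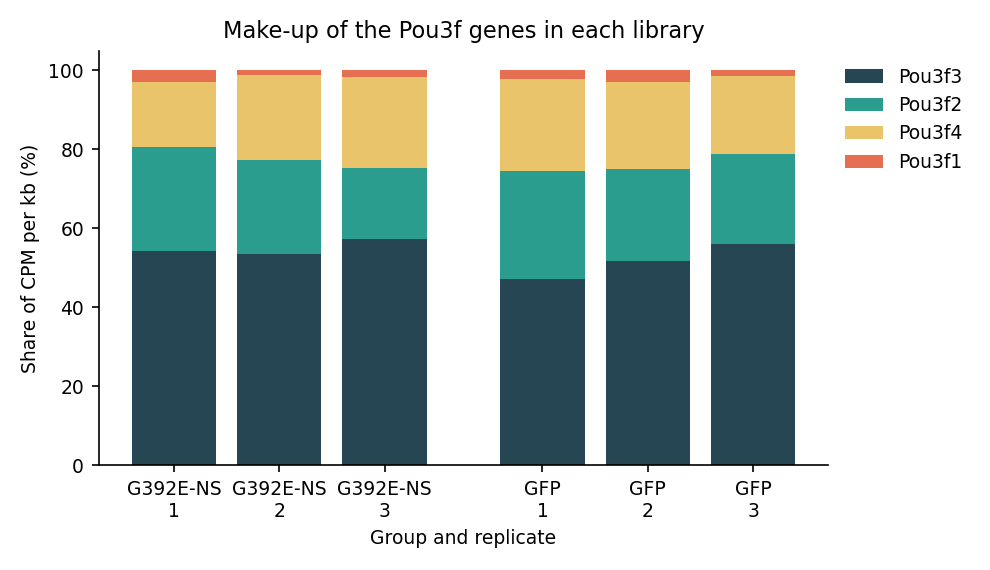
Share of each Pou3f gene in the summed CPM per kb of the 4 Pou3f genes, in percent, for each G392E-NS and GFP library. Pou3f3 makes up 47.1% to 57.4% of the sum in every library, and Pou3f1 at most 3.02%.

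Among the Pou3f genes the make-up was alike in its order. Per kilobase, Pou3f3 made up 55.1% ± 2.05 of the Pou3f sum in G392E-NS and 51.7% ± 4.53 in GFP libraries, Pou3f2 22.6% ± 4.33 and 24.4% ± 2.56, Pou3f4 20.3% ± 3.57 and 21.8% ± 1.81 (SD, n = 3 each), each difference being within the spread of the replicates. Pou3f1 (Oct6), which acts in Schwann cells and early neural cells, varied most, with 5.90, 2.08 and 3.13 CPM in G392E-NS libraries, against 3.05, 4.31 and 1.92 CPM in GFP libraries. Its high value was that of G392E-NS replicate 1, and without that library its log2 fold change of 0.27 turned to -0.27 (adjusted p = 0.681).

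Irx genes formed the most abundant family after Pou and Pax, and none of the 4 tested passed (adjusted p of 0.296 to 0.822 by edgeR). Irx1 had 13.1, 16.95 and 20.3 CPM in G392E-NS libraries, against 8.52, 12.5 and 16.5 CPM in GFP libraries. Its chromosomal partner Irx2 was far lower, with 1.16, 1.398 and 1.11 CPM in G392E-NS libraries, against 2.01, 1.20 and 2.31 CPM in GFP libraries. Their log2 fold changes of 0.41 (SE 0.25) and -0.58 (SE 0.30) had opposite signs, and the groups overlapped for both. Irx3 and Irx5, a second chromosomal pair, had 7.41 ± 2.57 and 6.27 ± 1.37 CPM in G392E-NS libraries and 6.73 ± 1.14 and 6.998 ± 0.809 CPM in GFP libraries.

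The Six-family genes tested, Six2, Six4 and Six5, had adjusted p of 0.554 to 0.99 by edgeR. Six4, a muscle and sensory factor, had 5.23, 4.36 and 4.69 CPM in G392E-NS libraries, against 5.29, 5.62 and 5.34 CPM in GFP libraries. The groups did not overlap, but the difference was small (log2 fold change -0.18, SE 0.17). Six5, a neighbour of the myotonic dystrophy kinase gene, had 3.86, 5.81 and 4.95 CPM in G392E-NS and 5.18, 6.07 and 3.33 CPM in GFP libraries, which overlapped. Six2, which keeps nephron progenitors, was under 1.3 CPM in every library.

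Genes of the ventral forebrain were close to the limit of detection. Dlx2, which with Dlx1 drives interneuron differentiation, had 0.872, 0.636 and 0.195 CPM in G392E-NS libraries, against 0.691, 0.602 and 1.37 CPM in GFP libraries (log2 fold change -0.59, SE 0.51, edgeR adjusted p = 0.529). Dlx1 had 3, 9 and 6 counts in G392E-NS libraries, against 16, 5 and 19 counts in GFP libraries, and with no low-count filter its log2 fold change was -1.19 (SE 0.54, edgeR adjusted p = 0.254). Both genes overlapped between the groups. Dlx5 and Dlx3 had no count, Lhx6 had 3 counts over the 6 libraries, Lhx8 had 2 and Nkx2-1 had 2.

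Each of the 7 Lhx genes had between 1 and 16 counts in all, and no Nkx gene had more than 6. Lhx1, a factor of motor neurons and the early organizer, had 2, 1 and 0 counts in G392E-NS libraries, against 2, 5 and 6 counts in GFP libraries. Lhx4, a motor neuron and pituitary factor, had 1, 2 and 1 in G392E-NS and 1, 4 and 4 in GFP libraries. These totals are too low to compare. Msx1, a factor of dorsal neural tube and neural crest, had 6, 8 and 5 counts in G392E-NS and 4, 5 and 6 counts in GFP libraries, and its groups overlapped.

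Of the 19 genes tested and not called, 14 had a 95% interval that stayed within 1 of 0 on the log2 scale, so that a change of 2-fold or more lies outside their intervals. The intervals of Irx2, Pou3f1, Pou4f1 and Dlx2 were among those that reached further.

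Proteins that work with these factors were read from lists of partner, chromatin and pathway genes. TALE cofactors (Pbx, Meis and Pknox), which bind DNA together with Hox proteins, were well expressed while Hox genes were not. They summed to 557 to 639 CPM in G392E-NS and 587 to 633 CPM in GFP libraries, and 0 of 9 passed the edgeR test in either direction, with a median log2 fold change of -0.11. The smallest adjusted p was 0.253, for Pbx3 (-0.32), and with the left-out libraries, DESeq2 and limma-voom it was never called. Of 5 tested LIM partners, which bind Lhx and Isl proteins, Lmo1 rose by 1.07 on the log2 scale (SE 0.23, edgeR adjusted p = 0.0379, 5.74 ± 0.930 CPM in G392E-NS and 2.72 ± 0.603 CPM in GFP libraries). Its call was lost without GFP replicate 1 or 2 or G392E-NS replicate 2 or 3 (adjusted p of 0.0824 to 0.155).

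Of 6 Eya and Dach genes, the partners of Six-family proteins, Eya4 fell by 1.10 (SE 0.23, edgeR adjusted p = 0.0337), with 3.81 ± 0.562 CPM in G392E-NS and 8.16 ± 2.07 CPM in GFP libraries. Of 6 Groucho corepressors, Tle6, a shortened Groucho relative, fell by 1.86 (SE 0.39, edgeR adjusted p = 0.0332), with 1.33 ± 0.483 CPM in G392E-NS and 4.77 ± 1.88 CPM in GFP libraries. Both calls were fragile: Eya4 lost its call without each library except GFP replicate 3 (adjusted p of 0.0558 to 0.134), and so did Tle6 (0.0554 to 0.117). Dach1 (-0.91, edgeR adjusted p = 0.0572) and Tle2 (-1.51, adjusted p = 0.0669) were also lower in every G392E-NS library without passing. Tle2 lies next to Tle6 on chromosome 10. Of the other genes in these lists, only Tle1 was above 0 (0.03).

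Chromatin regulators of Hox genes were read in both directions. Of 23 Polycomb genes, whose complexes keep Hox genes silent, 0 were called higher or lower by edgeR (median log2 fold change -0.13). Their sum was nonetheless lower in every G392E-NS library, at 1917 to 2058 CPM against 2183 to 2251 CPM in GFP libraries. Members above 0 included Pcgf5 (0.57) and Ring1 (0.23). Ezh2, the H3K27 methyltransferase, had the smallest adjusted p, 0.0759 (-0.39), and was called lower by DESeq2 (0.0307) and without G392E-NS replicate 1 (0.0317). Of 10 Trithorax and demethylase genes, 3 were lower and 0 higher (median -0.23), all of them H3K4 methyltransferases. Kmt2d had 99.9, 80.9 and 94.7 CPM in G392E-NS libraries, against 153, 158 and 154 CPM in GFP libraries, and fell by 0.76 (SE 0.10, edgeR adjusted p = 0.00534).

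Kmt2a, known for keeping Hox genes active, had 251, 221 and 251 CPM in G392E-NS libraries, against 382, 379 and 343 CPM in GFP libraries, and fell by 0.61 (SE 0.10, edgeR adjusted p = 0.0139). Kmt2c fell by 0.49 (SE 0.12, adjusted p = 0.0480). The groups did not overlap for Kmt2a, Kmt2c and Kmt2d. Kmt2d kept its call with each library left out, Kmt2a lost it without GFP replicate 1 (0.0798) or 2 (0.0754), and Kmt2c lost it without each library except G392E-NS replicate 1 (0.0835 to 0.190).

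**Figure D5:**
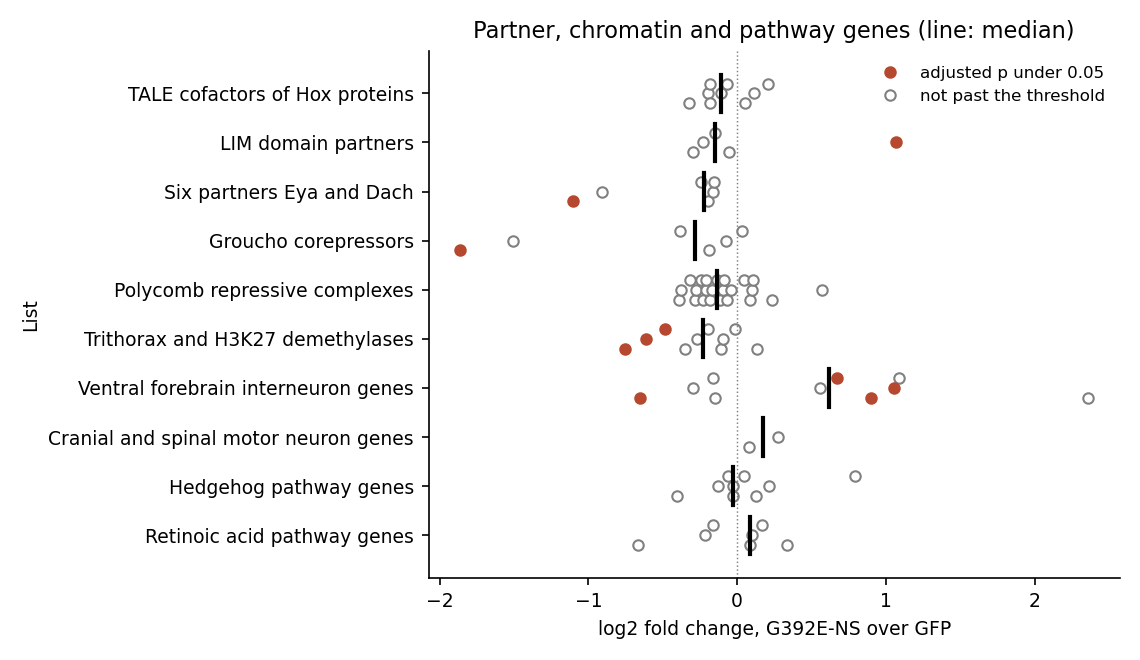
Log2 fold change of G392E-NS over GFP for each tested gene of the 10 partner, chromatin and pathway lists, with the list's median as a line. Filled points passed an adjusted p of 0.05, and the 3 filled Trithorax points lie below 0.

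Of 10 tested ventral forebrain genes outside these families, 3 rose and 1 fell (median 0.62). Nr2f1 (COUP-TFI), Gsx1, a progenitor factor of the ganglionic eminences, and Maf rose by 0.67, 1.05 and 0.90 on the log2 scale, and Gad1, which makes GABA, fell by 0.65 (edgeR adjusted p of 0.0130, 0.0346, 0.0444 and 0.00854). Each of these 4 lost its call when GFP replicate 1 (0.0539 to 0.171) or GFP replicate 2 (0.0518 to 0.140) was left out. Gsx1 and Maf lost it also without GFP replicate 3 (0.0780 and 0.111), and Maf without G392E-NS replicate 2 or 3 (0.114 and 0.0990). Of the motor neuron list, which Isl2 would accompany, Mnx1, Slc5a7 and Phox2a had no count in any library, and neither of the 2 tested genes passed (Neurog2 nearest, log2 fold change 0.27, adjusted p = 0.325). Among 9 tested Hedgehog genes and 7 tested retinoic acid genes, 0 passed with all 6 libraries (nearest Hhip, 0.79, adjusted p = 0.135, and Rxrb, -0.21, adjusted p = 0.240), and the retinoic acid enzyme gene Aldh1a2 and the Cdx genes had no count.

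Some markers of region and cell type moved with the groups and others did not. The part of these markers in the falls of Pax9 and Isl2 was not tested. By edgeR, 0 of 7 tested neuron markers were called. The sums of the neuron list overlapped, at 3100 to 4297 CPM in G392E-NS and 3318 to 3845 CPM in GFP libraries. Most of that sum was Map2 (2628 CPM in G392E-NS and 2747 CPM in GFP libraries on average). Syt1 (0.88, edgeR adjusted p = 0.0640) and Snap25 (0.47, adjusted p = 0.176) were higher in every G392E-NS library without passing. The groups of the other tested neuron markers overlapped. Stmn2, not tested, had 2 counts in G392E-NS and 12 in GFP libraries. Of the 2 endothelial and 3 neural crest markers tested, 0 were called. Midbrain and hindbrain markers summed to 4.61 to 7.30 CPM in G392E-NS libraries, against 25.02 to 27.6 CPM in GFP libraries. Most of that sum was En2 and Gbx2. The others detected were too low to be tested, among them Fgf8 (9 counts in G392E-NS and 12 in GFP libraries) and Lmx1a (10 and 12). Both tested markers of the 8 fell: En2 had 1.25, 1.48 and 2.15 CPM in G392E-NS libraries, against 14.6, 17.3 and 17.7 CPM in GFP libraries, and Gbx2 fell by 1.36 (SE 0.22, edgeR adjusted p = 0.0139), a call lost without GFP replicate 1 (0.0673). Wnt1 of this list was at 0. Astrocyte markers summed to 7075 to 11352 CPM in G392E-NS and 3117 to 4445 CPM in GFP libraries, with 4 of 8 called higher. Mesenchymal markers summed to 11.7 to 23.6 CPM in G392E-NS and 26.9 to 38.7 CPM in GFP libraries, with Dcn and Lum at 0. Most of that sum was Prrx1 (14.7 ± 5.94 CPM in G392E-NS and 33.4 ± 5.93 CPM in GFP libraries, edgeR adjusted p = 0.0537). Other members ran the other way: Twist1 had 129 counts in G392E-NS and 0 in GFP libraries and was called higher, and Pdgfrb, not tested, had 49 and 4. Microglial markers stayed under 0.4 CPM in each library, and the crest marker Foxd3 was at 0.

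The labelled cortical origin was checked against cortical markers. Emx2, a factor of cortical progenitors, was at 40.7 ± 3.33 CPM in G392E-NS and 32.7 ± 6.23 CPM in GFP libraries (SD, n = 3 each) and did not pass. Emx1, a defining factor of the dorsal cortex, had 0 counts in G392E-NS and 6 counts in GFP libraries, and Neurod6 had 7 and 12, so both were close to absent. The progenitor markers Sox2 and Fabp7 and the oligodendrocyte lineage markers Olig1 and Olig2 were high in both groups, Olig2 at 1102 CPM in G392E-NS and 1041 CPM in GFP libraries on average. Other members of these 2 lists were called: Nes was lower (log2 fold change -0.77, edgeR adjusted p = 0.0480), and Prom1 (2.52, adjusted p = 0.00303), Pdgfra (1.12, adjusted p = 0.0435) and Mog (2.25, adjusted p = 0.0295) were higher.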

How the data were processed

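RNA was sequenced in 3 G392E-NS and 3 GFP libraries, grouped by their titles. The deposited table holds raw counts per Ensembl gene, whole numbers that the authors did not normalise. Per the submitters' processing notes, DESeq2 1.4.5, R 3.2.2, HTSeq 0.6.1, TopHat2 2.0.12 and GRCm38 were used, in roles not stated. Annotation release, strand setting and filters: not given in the sources used here. Symbols and positions came from GENCODE release M21 (GRCm38), which matched 37693 of 39179 genes, and promoters from RefSeq (GRCm38.p6).

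The members and lists were chosen with earlier results of these data known. The rule for named genes took, library by library, members called, members with 30 or more counts and none in 1 group, and the 2 highest of each family by CPM, and of each pathway list up to 4 called genes by fold change or the gene with the smallest adjusted p. Other genes given library by library, the chromosomal neighbours and En2 were chosen after their values were seen. So were Dach1, Tle2, Pcgf5, Ring1, Syt1, Snap25 and Stmn2. The 13775 genes kept by filterByExpr held 99.9% of counts. They were scaled by TMM and tested with edgeR 4.0.16 in R 4.3.3, with no covariate. Each SE is the absolute log2 fold change over the root of F. CPM per kb used the union of exons. Alternatives were RLE, upper-quartile and no scaling, DESeq2 1.42.0, limma-voom (limma 3.58.1), 2 other filters, the replicate number as a block, and leaving out each library. Replicate pairs differed far beyond sampling noise (chi-square per degree of freedom 8.02 to 56.4). The tests were tried on simulated data. Depths of 15507487 to 24835835 counts limit genes under about 30 counts. The values of some members and markers are not reported here.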

Additional observations from a re-analysis of the deposited data

How the results depend on the processing

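Under 14 alternatives the calls of Pax9 and Isl2 were kept, with log2 fold changes of -4.10 to -3.70 and -3.58 to -3.20. Genes of these families called lower numbered 3, and 2 to 4 with a library left out (2 without GFP replicate 1 or 2), 2 with the replicate block and 2 at 1 CPM in 3 libraries, and called higher 0, except 1 by DESeq2 (Pou3f3). Over all genes 847 were called, 1450 by DESeq2, 1579 with no low-count filter and 242 to 1373 with a library left out. No pairing by replicate number was seen (correlations of 0.0406, -0.421 and -0.271 between same-numbered libraries). Deviations from means of 3 libraries are tied to one another, so this check cannot exclude a pairing. The highest correlations were between libraries of different number. They were 0.385 for G392E-NS replicate 3 with GFP replicate 2, and 0.325 for G392E-NS replicate 2 with GFP replicate 3. With the replicate block 267 genes were called. Lmo1, Eya4, Tle6, Kmt2a, Kmt2c, Gsx1, Maf and Gbx2 were not called with it (edgeR adjusted p of 0.0681 to 0.132). The cause of these moves was not tested.

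Signs turned for 5 genes that did not pass in any of these settings. With library totals only, Six2 had -0.048 and Six5 -0.058; by DESeq2 Six2 had -0.010; with no low-count filter Six2 had -0.0021 and Six5 -0.011; with the replicate block Six2 had -0.037. With a library left out, Six2 ranged from -0.22 to 0.32, Six5 from -0.21 to 0.20, Irx3 from -0.17 to 0.32, Pou2f2 from -0.12 to 0.29 and Pou3f1 from -0.27 to 0.59. A threshold of 10 or 100 counts in place of 30 kept 30 or 20 members. Of the other genes named, limma-voom ended the calls of Maf and Tle6, and upper-quartile scaling that of Kmt2c. No scaling moved the median of all genes by over 0.1.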

Other observations

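Antisense and host genes of the same families were left out of the set and are given here as values. Lhx1os, the transcript opposite Lhx1, had 0, 1 and 0 counts in G392E-NS libraries, against 3, 4 and 7 counts in GFP libraries. It was too low to be tested. Dlx1as, whose exons overlap those of Dlx1, had 39 counts in G392E-NS and 28 counts in GFP libraries and did not pass (log2 fold change 0.38, SE 0.41, edgeR adjusted p = 0.616). Irx3os had 39 and 22 counts and did not pass either (0.77, SE 0.32, edgeR adjusted p = 0.204).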
